A study of Mus musculus with 6 samples.

Results

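The genes described here are 9 members of the complement system in the left ventricle (LV), of 56923 genes in the count table. The list was drawn up with the difference between the genotypes known and holds the C1q chain genes *C1qa*, *C1qb*, and *C1qc*, the protease genes *C1ra* and *C1s1*, the component genes *C3* and *C4b*, and the receptor genes *C3ar1* and *C5ar1*. All 9 passed the filter on low counts that left 17212 genes for testing. mRNA-Seq was performed on the perfused LVs of 3 WT mice and 3 *Lztr1* R409C/+ mice, heterozygous for a knock-in substitution in *Lztr1*, the substrate adaptor of a ubiquitin ligase that acts on RAS proteins. The sample labels give the tissue as heart, the age as 12 weeks, and the genotype as wild-type or mutant, and the allele is the one the study names for its mRNA-Seq of the LV. Its methods describe backcrossing to C57BL/6J and the use of male mice to assess phenotypes, without stating the sex of the sequenced mice. The allele is a germline knock-in, so that no cell type was targeted, and no treatment is given for these mice. *Lztr1* itself had 24.2, 24.2, and 22.2 CPM (counts scaled to a common library size) in WT replicates 1, 2, and 3 and 23.9, 27.9, and 25.3 CPM in the mutant replicates, and counts per gene cannot show a substitution.

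Complement is a cascade of plasma and tissue proteins that marks microbes, dying cells, and debris for removal. In the classical pathway, the bouquet-shaped protein C1q, built of A, B, and C chains, binds its target and activates the serine proteases C1r and C1s, which cleave C4 and C2 and so lead to the cleavage of C3. The fragments C3a and C5a act on the receptors C3aR1 and C5aR1 of myeloid and other cells. The C1q chains are made mainly by macrophages and related myeloid cells, whereas C1r, C1s, C3, and C4 are made by the liver and, in tissues, by stromal cells such as fibroblasts.

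The C1q chain genes lie next to each other on the minus strand of chromosome 4 of GRCm39, *C1qb* from 136606009 to 136613511 (ENSMUSG00000036905.9), *C1qc* from 136616466 to 136620376 (ENSMUSG00000036896.6), and *C1qa* from 136623223 to 136626161 (ENSMUSG00000036887.6). They span 20153 bases, with 2954 bases between *C1qb* and *C1qc* and 2846 bases between *C1qc* and *C1qa*, and the canonical transcript of each has 3 exons in GENCODE vM39. Because the C1q chains had the largest differences of the list, the 250 bases before the start of each canonical transcript are shown, read from GRCm39, 5′ to 3′ on the strand of the gene, with matches to GAGGAA, the core letters bound by the myeloid factor PU.1, or to its reverse complement in capitals.
C1qa promoter (chr4:136626162-136626411, minus strand): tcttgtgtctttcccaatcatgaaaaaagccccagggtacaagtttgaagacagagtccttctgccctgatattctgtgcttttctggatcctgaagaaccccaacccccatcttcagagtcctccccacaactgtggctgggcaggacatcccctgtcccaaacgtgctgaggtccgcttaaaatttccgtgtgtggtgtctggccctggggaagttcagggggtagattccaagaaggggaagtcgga
C1qb promoter (chr4:136613512-136613761, minus strand): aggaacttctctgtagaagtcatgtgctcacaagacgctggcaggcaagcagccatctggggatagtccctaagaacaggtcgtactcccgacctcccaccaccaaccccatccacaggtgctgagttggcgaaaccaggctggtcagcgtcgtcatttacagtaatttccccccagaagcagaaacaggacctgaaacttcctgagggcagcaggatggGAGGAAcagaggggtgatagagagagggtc
C1qc promoter (chr4:136620377-136620626, minus strand): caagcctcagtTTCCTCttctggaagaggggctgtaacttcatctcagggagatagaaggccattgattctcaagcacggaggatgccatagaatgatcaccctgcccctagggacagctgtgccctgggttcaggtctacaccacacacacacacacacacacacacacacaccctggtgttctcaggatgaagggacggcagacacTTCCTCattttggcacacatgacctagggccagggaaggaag
The *C1qb* window held 1 match, whose first base was 30 bases before the start, and the *C1qc* window held 2 matches on the opposite strand, 42 and 239 bases before the start. The *C1qa* window held 0. The windows of the other 6 genes held 0 matches, and 22.9% of 21770 protein-coding windows of this length held at least 1 on either strand. The letters GAAA, any 2 bases, and GAAA again, an element of interferon regulatory factors, was found in 0 of the 9 windows and in 3.32% of all windows on either strand. A match is a match of letters and not a site of binding.

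Total counts ranged from 66130887 to 72641124 per mouse. Libraries stood apart in the share of mitochondrially encoded counts, which was lowest in WT replicate 3 with 13.9% and highest in mutant replicate 1 with 45.4%, and lay between 29.7% and 37.3% in the other 4 mice. Mutant replicate 1 also had the lowest summed level of 7 ventricular cardiomyocyte markers, 29290 CPM. Mutant replicate 2 had 39710 CPM, also below every WT mouse, and mutant replicate 3 had 45820 CPM, against 45630 to 48550 CPM in WT mice. 3 counts corresponded to at most 0.0541 CPM, a floor for counting error only. The described genes had between 211 and 6203 counts in every mouse. Differences between genotypes are given as log2 fold changes of mutant over WT mice with their standard errors (SE), and because the list was drawn up with this comparison known, they are a description without a test. With 1 LV per mouse, more cells of a type and more RNA per cell cannot be told apart.

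All C1q chain genes were higher in every mutant mouse than in every WT mouse. *C1qa*, for the A chain, had 10.9, 7.33, and 12.7 CPM in WT replicates 1, 2, and 3 and 24.4, 22.1, and 40.9 CPM in mutant replicates 1, 2, and 3. *C1qb*, for the B chain, had 18.2, 20.6, and 16.8 CPM in WT and 42.9, 42.5, and 38.1 CPM in mutant mice. *C1qc*, for the C chain, had 13.6, 13.7, and 13.6 CPM in WT and 28.7, 31.0, and 33.7 CPM in mutant mice. The groups were separated by a wide gap for each chain, and mutant replicate 3 had the highest *C1qa* and the lowest *C1qb* of the mutant mice. The means were 10.3 ± 2.73 and 29.1 ± 10.3 CPM for *C1qa*, 18.6 ± 1.89 and 41.2 ± 2.66 CPM for *C1qb*, and 13.7 ± 0.0182 and 31.1 ± 2.51 CPM for *C1qc* in WT and mutant mice (SD, n = 3). The log2 fold changes were 1.5 (SE 0.26), 1.15 (SE 0.15), and 1.19 (SE 0.15) for *C1qa*, *C1qb*, and *C1qc*. The spread of *C1qc* among WT mice, a coefficient of variation of 0.133%, was below the counting error of 3.12%, and so this closeness is finer than the counts can resolve. Without WT replicate 3 and mutant replicate 1, the libraries that stood apart, the log2 fold changes were 1.79, 1.06, and 1.24, and they were 1.33, 1.01, and 1.04 with scaling by library size alone.

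**Figure D1:**
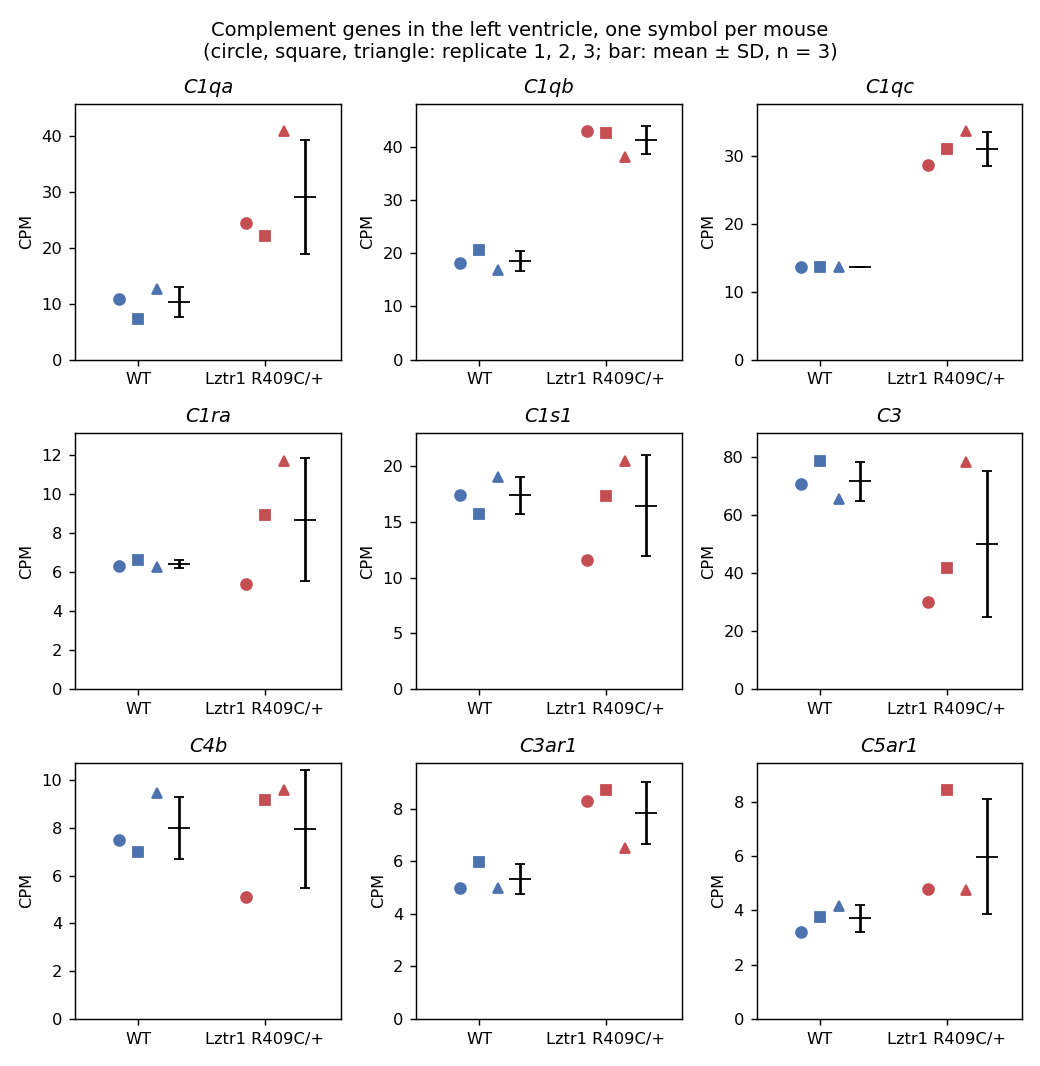
CPM of the 9 complement genes (vertical axes, from 0, each with its own scale) in 3 WT mice (blue) and 3 *Lztr1* R409C/+ mice (red), with the mean and SD of each group as bars. The C1q chains, *C3ar1*, and *C5ar1* are higher in each mutant mouse than in each WT mouse, and *C1ra*, *C1s1*, *C3*, and *C4b* overlap, with mutant replicate 1 (circle) lowest in each of these.

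The proteases that C1q activates did not follow its chains. *C1ra* (ENSMUSG00000055172.11, chromosome 6, 124489364 to 124500402) had 6.31, 6.63, and 6.27 CPM in WT and 5.41, 8.91, and 11.7 CPM in mutant mice. *C1s1* (ENSMUSG00000038521.18, chromosome 6, 124507297 to 124559389) had 17.4, 15.7, and 19.0 CPM in WT and 11.6, 17.3, and 20.5 CPM in mutant mice. WT mice were tightly grouped, whereas the mutant mice lay on both sides of them, with replicate 1 lowest and replicate 3 highest for both genes. The log2 fold changes were 0.44 (SE 0.25) for *C1ra* and -0.08 (SE 0.21) for *C1s1*. Without mutant replicate 1 these were 0.68 and 0.11, and *C1ra* then no longer overlapped between the genotypes. Without WT replicate 3 as well, they were 0.67 and 0.19. Without mutant replicate 3 they were 0.16 and -0.27.

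*C3* (ENSMUSG00000024164.16, chromosome 17, 57510964 to 57535155), for the component on which all complement pathways meet, had 70.4, 78.6, and 65.5 CPM in WT and 29.9, 41.8, and 78.1 CPM in mutant mice. It had the lowest log2 fold change of the 9 genes, -0.52 (SE 0.29), but the genotypes overlapped, since 2 mutant mice were below every WT mouse and replicate 3 lay within the WT range. Its log2 fold change was -0.996 without mutant replicate 3, when *C3* was lower in every remaining mutant mouse, -0.26 without mutant replicate 1, and -0.31 without WT replicate 3 and mutant replicate 1. *C4b* (ENSMUSG00000073418.5, chromosome 17, 34947354 to 34962912), for the component cleaved by C1s, had 7.49, 7.01, and 9.47 CPM in WT and 5.09, 9.16, and 9.58 CPM in mutant mice, with overlap and a log2 fold change of -0.01 (SE 0.25). Its direction turned to 0.22 without mutant replicate 1, to 0.13 without WT replicate 3, to 0.37 without both, when *C4b* was higher in every remaining mutant mouse, and to 0.03 with upper quartile normalization. Its near-identical copy *C4a* took between 3.48% and 9.90% of the counts of both, so that some reads of either may have been assigned to the other. Antisense noncoding genes in GENCODE vM39 share 334 exon bases with *C3* and 366 with *C4b*.

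Of the receptors, *C3ar1* (ENSMUSG00000040552.9, chromosome 6, 122823393 to 122833122), the receptor for C3a, had 4.99, 6.0, and 5.0 CPM in WT and 8.30, 8.71, and 6.51 CPM in mutant mice. *C5ar1* (ENSMUSG00000049130.7, chromosome 7, 15980668 to 15993465), the receptor for C5a, had 3.19, 3.74, and 4.17 CPM in WT and 4.78, 8.42, and 4.73 CPM in mutant mice. Neither gene overlapped between the genotypes, but the gap was narrow, and mutant replicate 2 stood above the other mutant mice for *C5ar1*. The log2 fold changes were 0.56 (SE 0.20) for *C3ar1* and 0.69 (SE 0.27) for *C5ar1*, smaller than those of the C1q chains. Without mutant replicate 2 that of *C5ar1* was 0.35, and with scaling by library size alone both receptors overlapped between the genotypes. Without WT replicate 3 and mutant replicate 1, the log2 fold changes were 0.47 for *C3ar1* and 0.92 for *C5ar1*.

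Counted over the list, 6 of 9 genes had a positive and 3 a negative log2 fold change, with a median of 0.56 beside 0.01 over all genes tested. 5 of 9, the C1q chains and both receptors, were higher in every mutant mouse, and 0 of 9 were lower in every mutant mouse, where 8.3% and 7.23% of the genes tested were so separated. At an unadjusted p under 0.05, these 5 genes were higher and 0 lower, beside 5.77% and 2.86% of all genes tested, or 8.63% in either direction. *C1qb* and *C1qc* were 2 of the 6 genes that edgeR's quasi-likelihood test called higher at a false discovery rate of 0.05, 0.0349% of all genes tested, and 0 of the 9 were among those called lower, 0.00581%. They were called with all 6 mice, but leaving out any 1 of the mice left 0 of the 9 called, as did scaling by library size only and leaving out WT replicate 3 and mutant replicate 1 together. *C1qa* was also called by DESeq2, by edgeR's exact test, and without the filter on low counts. These versions called 143, 127, and 19 genes higher in all. The list was chosen with these calls known, so its counts are no evidence about the list.

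Within a mouse, the ratio of 2 genes does not depend on how the libraries were scaled. The ratio of *C1qb* to *C1qc* counts was 1.34, 1.5, and 1.23 in WT and 1.5, 1.37, and 1.13 in mutant mice, and that of *C1qa* to *C1qc* was 0.801, 0.536, and 0.929 in WT and 0.850, 0.712, and 1.21 in mutant mice. Both ratios overlapped, and *C1qa* was the chain that varied most against the others. By contrast, the ratio of *C1qc* to *C1s1* was 0.782, 0.871, and 0.718 in WT and 2.48, 1.8, and 1.65 in mutant mice, without overlap. *C1qc* was listed with its difference known and *C1s1* differed little, so this ratio restates the values of *C1qc* and is no further evidence. The ratio of *C1ra* to *C1s1* was also separated, at 0.362, 0.423, and 0.330 in WT and 0.467, 0.516, and 0.572 in mutant mice, although neither gene was separated by itself. The share of all pairs of genes with a separated ratio was not computed. For the receptors, the ratio of *C3ar1* to *C5ar1* overlapped, at 1.56, 1.6, and 1.2 in WT and 1.74, 1.03, and 1.38 in mutant mice.

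Levels of different genes were compared as CPM per kilobase of exon, with exons of all transcripts joined. In WT mice, *C3* was highest at 13.8 ± 1.28, followed by *C1qa* at 6.41 ± 1.69, *C1s1* at 5.01 ± 0.477, *C1qc* at 4.77 ± 0.00636, *C1qb* at 2.97 ± 0.302, *C1ra* at 2.01 ± 0.0624, *C5ar1* at 1.44 ± 0.191, *C4b* at 1.32 ± 0.215, and *C3ar1* at 1.06 ± 0.115 CPM per kilobase (SD, n = 3). In this order, *C1qa*, *C1s1*, and *C1qc* overlapped over the mice, as did *C5ar1* with *C4b* and *C4b* with *C3ar1*, and the other neighbors did not. In mutant mice, *C1qa* came first at 18.1 ± 6.39 and *C1qc* next at 10.9 ± 0.877, ahead of *C3* at 9.63 ± 4.84, with which *C1qa*, *C1qc*, and *C1qb* at 6.60 ± 0.425 overlapped. *C1qa*, with the mean of all mice, stood at the 90.9th percentile and *C3ar1* at the 48.4th percentile of the genes tested.

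These levels depend on the gene models, most of all for *C1qb*. Its joined exons cover 6246 bases, but its canonical transcript has 2532 bases. As a share of the 3 chains per length, *C1qa*, *C1qb*, and *C1qc* made up 44.8% ± 7.85, 21.3% ± 4.36, and 34.0% ± 3.49 in WT mice with joined exons (SD, n = 3), and 49.9% ± 7.82, 19.1% ± 4.32, and 31.0% ± 3.69 in mutant mice. With the canonical transcripts, an alternative chosen after seeing the data, the shares were 38.9%, 30.6%, and 30.6% in WT and 43.9%, 27.8%, and 28.3% in mutant mice. The level of *C1qb* was then 7.33 CPM per kilobase in WT and 16.3 CPM per kilobase in mutant mice, where it came after *C1qa* and *C1qc* and ahead of *C3* at 9.68. By either length the genotypes overlapped for the share of each chain, and the annotation release behind the counts is not given in the sources used here.

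The spread of the genes among mice of the same genotype is given as a description, since a call depends on it and the list was drawn up with the calls known. The pooled SD within genotype, on the log2 CPM scale, was 0.08 for *C1qc* and 0.12 for *C1qb*, against a median of 0.30 over all genes tested, which placed these genes, the called ones of the list, at the 2.09th and 7.81st percentiles. *C1qa* was at 0.44, the 70.8th percentile, and *C3* had the widest spread of the list with 0.51. *C1ra*, *C1s1*, *C3*, and *C4b* shared a pattern among the mutant mice, as each was lowest in replicate 1, with deviations from -0.62 to -0.47, and highest in replicate 3, with deviations from 0.33 to 0.76. This order was not particular to them, since *C1qc* and the summed markers of cardiomyocytes and of endothelium had it too. The mitochondrial share ran in reverse, at 45.4%, 35.0%, and 29.7% in mutant replicates 1, 2, and 3. The summed macrophage and mural markers were instead lowest in replicate 3. The share of all genes with this order was not computed. Over the 6 mice, the root mean square difference between the deviations of a pair of genes was smallest for *C1qb* with *C3ar1*, 0.0852. It was next smallest for *C1s1* with *C4b*, 0.103, and *C1ra* with *C1s1*, 0.134. It was 0.459 between *C1qa* and *C1qb*, whose deviations had opposite signs in all 6 mice. These are descriptions over few mice that share their libraries and scaling.

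**Figure D2:**
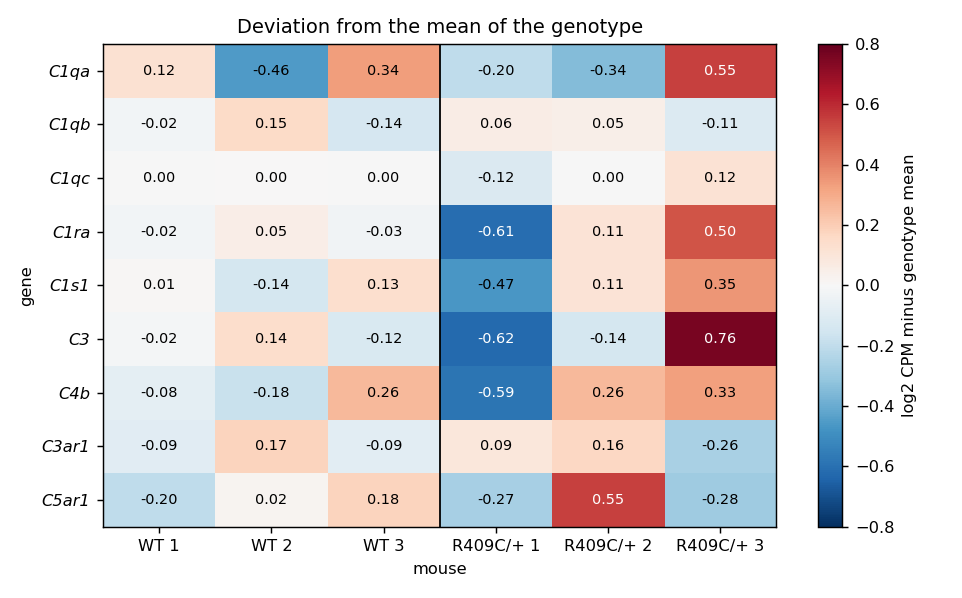
Deviation of each gene from the mean of its genotype, in log2 CPM (color and printed value), for each mouse (columns). *C1qb* and *C1qc* stay near 0, and *C1ra*, *C1s1*, *C3*, and *C4b* run from their lowest value in mutant replicate 1 to their highest in mutant replicate 3.

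Marker lists of cell types were set beside these genes, since the LV holds cardiomyocytes, fibroblasts, vessels, and immune cells. All 12 macrophage markers were detected and had a positive log2 fold change, from 0.29 for *Mertk* to 1.69 for *Cx3cr1*, and 10 of 12 were higher in every mutant mouse, beside 8.3% of all genes tested. Their summed level was 129.3 to 139.7 CPM in WT and 197.2 to 208.7 CPM in mutant mice. The summed C1q chains were 41.6 to 43.2 CPM in WT and 95.6 to 112.8 CPM in mutant mice, so that per macrophage marker CPM they were 0.331, 0.315, and 0.309 in WT and 0.467, 0.458, and 0.572 in mutant mice. That ratio did not overlap between the genotypes, and each of *C1qa*, *C1qb*, and *C1qc* alone was also separated from the macrophage sum in this way. The ratio depends on the makeup of the sum, since its most abundant markers *Csf1r*, *Mrc1*, *Cd163*, and *Lyve1* had log2 fold changes of 0.53, 0.42, 0.44, and 0.77, whereas those of *Fcgr1*, *Cd68*, *Aif1*, and *Folr2*, at 1.41, 1.19, 1.10, and 1.02, and that of *Cx3cr1* were near or above those of the C1q chains. The summed receptors *C3ar1* and *C5ar1*, per macrophage marker CPM, overlapped at 0.0633, 0.0738, and 0.0657 in WT and 0.0636, 0.0821, and 0.0570 in mutant mice. The part of the macrophage markers in the higher C1q levels was not tested.

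The 8 fibroblast markers were all detected, with summed levels of 1311 to 1640 CPM in WT and 1191 to 1709 CPM in mutant mice. Among the mutant mice the sum was lowest in replicate 1 and highest in replicate 3, as for *C1ra*, *C1s1*, *C3*, and *C4b*, but its members differed in this. *Gsn*, the most abundant, had 453.0, 679.6, and 909.5 CPM in the mutant replicates, and *Col1a1* and *Col1a2* were also lowest in replicate 1, whereas *Dcn*, *Lum*, and *Dpt* were highest there. The part of the fibroblast markers in the values of the 4 genes was not tested. Per fibroblast marker CPM, the sum of these 4 genes was 0.0775, 0.0817, and 0.0611 in WT and 0.0436, 0.0504, and 0.0701 in mutant mice, with overlap. Monocyte markers summed to 2.5 to 3.79 CPM in WT and 4.53 to 10.6 CPM in mutant mice, with *Chil3* at 0 in every mouse and *Ccr2* at 8.97 CPM in mutant replicate 1. The monocyte sum was carried by *Ccr2*, with 1.09 to 2.10 CPM in WT and 3.53 to 8.97 CPM in mutant mice, whereas *Ly6c2* overlapped at 0.575 to 1.69 CPM in WT and 0.442 to 1.26 CPM in mutant mice with a log2 fold change of -0.72. Neutrophil markers summed to 0.961 to 1.86 CPM in WT and 2.20 to 2.57 CPM in mutant mice, with *Ly6g* and *Camp* at 0 in every mouse and *S100a8* at 0.137 to 0.242 CPM in WT and 0.552 to 0.741 CPM in mutant mice. *S100a9* and *Csf3r* overlapped between the genotypes, with log2 fold changes of -0.01 and 0.54. The 9 lymphocyte markers summed to 1.24 to 2.14 CPM in WT and 2.99 to 3.63 CPM in mutant mice. The sums of all 3 lists were higher in every mutant mouse, and their part in the values of the complement genes was not tested. Endothelial markers summed to 658.7 to 778.5 CPM in WT and 628.9 to 920.4 CPM in mutant mice, and mural cell markers to 634.7 to 744.8 CPM and 572.1 to 721.3 CPM, with overlap. Of single markers, the fibroblast *Tcf21*, *Lum*, and *Dpt* and the endothelial *Fabp4* were higher in every mutant mouse, beside 8.3% of all genes tested. The 3 fibroblast markers had log2 fold changes of 0.54, 0.61, and 0.65. The mural *Myh11* and *Tagln* and the cardiomyocyte markers *Ryr2* and *Atp2a2* were lower in every mutant mouse, beside 7.23% of all genes tested. Red cell genes summed to 578.8 to 1479 CPM in WT and 1042 to 2625 CPM in mutant mice, with overlap. Hepatocyte markers, which would accompany liver-derived complement mRNA, summed to at most 0.866 CPM in the mutant mice and to 8.70 CPM in WT replicate 1, the highest of the 6.

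**Figure D3:**
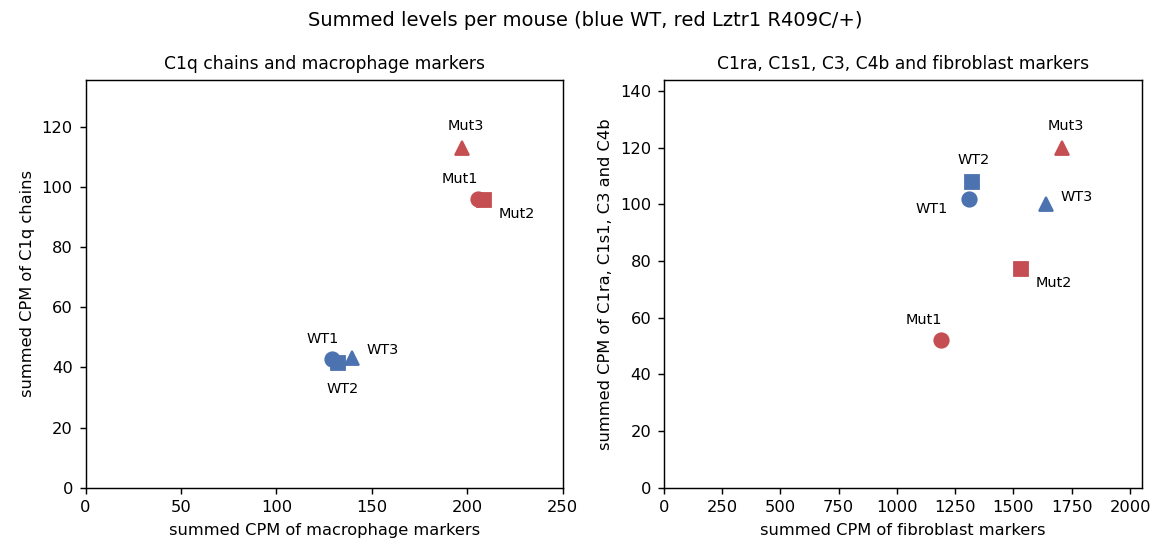
Summed CPM of the C1q chains against that of 12 macrophage markers (left) and of *C1ra*, *C1s1*, *C3*, and *C4b* against that of 8 fibroblast markers (right), one point per mouse, with linear axes from 0. On the left, the mutant mice lie at 197.2 to 208.7 CPM of macrophage markers and above 95 CPM of C1q, apart from all WT mice, and on the right the genotypes overlap.

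Whether other steps of the pathway differed was examined in 47 further complement genes, of which 31 were tested. In the quasi-likelihood test of edgeR, after Benjamini-Hochberg adjustment over all genes, 0 passed the false discovery rate of 0.05 in either direction, beside 0.0407% of all genes tested. At an unadjusted p under 0.05, 5 were higher and 1 was lower, beside 5.77% and 2.86% of all genes tested. DESeq2 called 3 of them higher, *Fcna*, *Itgam*, and *Itgax*, beside 143 genes higher and 15 lower among all genes tested. The exact test of edgeR called *Itgam* and *Itgax* higher, beside 127 genes higher and 13 lower among all genes tested. The median log2 fold change of the 31 genes was 0.19, beside 0.01 over all genes tested. Of the 31, 5 were higher and 2 were lower in every mutant mouse, beside 8.3% and 7.23% of all genes tested.

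Among the other genes of the initiating step, *Fcna*, for a ficolin made by macrophages that starts the lectin pathway, had 0.878, 1.37, and 1.75 CPM in WT and 2.42, 3.66, and 3.34 CPM in mutant mice, with a log2 fold change of 1.23 (SE 0.32, edgeR quasi-likelihood adjusted p = 0.274). *Colec12*, for a scavenger receptor with a collectin domain, was the highest of these genes, with 10.9, 13.8, and 10.1 CPM in WT and 17.8, 17.4, and 14.7 CPM in mutant mice and a log2 fold change of 0.52 (SE 0.18, edgeR quasi-likelihood adjusted p = 0.456). Both were separated between the genotypes. *Masp1*, for a protease of the lectin pathway, was the lowest of the group in fold change, at -0.20 (SE 0.20), and overlapped. The other *C1r* copy, *C1rb*, had 0.621 to 1.37 CPM in WT and 0.650 to 1.82 CPM in mutant mice, and *C1s2* had counts in mutant replicate 2 alone. *Mbl1*, *Mbl2*, and *Fcnb* had 0 counts in every mouse.

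The alternative and terminal pathways were sparse in the LV. Of 10 genes, 4 were tested, with log2 fold changes from -0.55 for *C7* (SE 0.27), of the membrane attack complex, to 0.53 for *Cfb* (SE 0.45), the protease subunit of the alternative C3 convertase. *C7* was also the highest of them and overlapped between the genotypes, with 5.65, 10.2, and 11.8 CPM in WT and 5.79, 5.18, and 7.89 CPM in mutant mice. *C8a* and *C8b* had 0 counts in every mouse, and *Hc*, the mouse gene for C5, from which the ligand of *C5ar1* is cut, had at most 0.110 CPM.

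*Clu*, for clusterin, an inhibitor of the terminal complex, had 401.6, 366.2, and 390.0 CPM in WT and 253.0, 279.3, and 357.3 CPM in mutant mice, lower in every mutant mouse, with a log2 fold change of -0.38 (SE 0.17, edgeR quasi-likelihood adjusted p = 0.569). *Serping1*, for the inhibitor of C1r and C1s, overlapped between the genotypes, at 47.4 to 72 CPM in WT and 60.2 to 72.3 CPM in mutant mice. The lowest and highest log2 fold changes of the 13 tested regulators, -0.64 for *Csmd1* and 1.11 for *Cfhr2*, came from genes below 1 CPM in every mouse, with SE of 0.81 and 1.16.

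All 7 other receptor genes had a positive log2 fold change, as did 8853 of the 17212 genes tested. Of the 7, 3 were higher in every mutant mouse, beside 8.3% of all genes tested. *Itgam* and *Itgb2* encode the chains of complement receptor 3, which binds fragments of C3, and *Itgax* the α chain of complement receptor 4. *Itgam* had 2.07, 2.52, and 2.93 CPM in WT and 4.6, 9.87, and 6.46 CPM in mutant mice, a log2 fold change of 1.47 (SE 0.29, edgeR quasi-likelihood adjusted p = 0.180). *Itgax* had 0.363, 0.311, and 0.306 CPM in WT and 1.41, 1.05, and 0.828 CPM in mutant mice, a log2 fold change of 1.74 (SE 0.44, edgeR quasi-likelihood adjusted p = 0.264). *Itgb2*, at 0.94 (SE 0.28), was also higher in every mutant mouse. *Cd93*, first described as a C1q receptor and made by endothelium, was the most abundant at 85.8 to 136.7 CPM in WT and 100.6 to 153.0 CPM in mutant mice and had the lowest log2 fold change, 0.32 (SE 0.21). *C5ar2* and *Vsig4* overlapped between the genotypes, with log2 fold changes of 0.55 (SE 0.34) and 0.70 (SE 0.56).

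**Figure D4:**
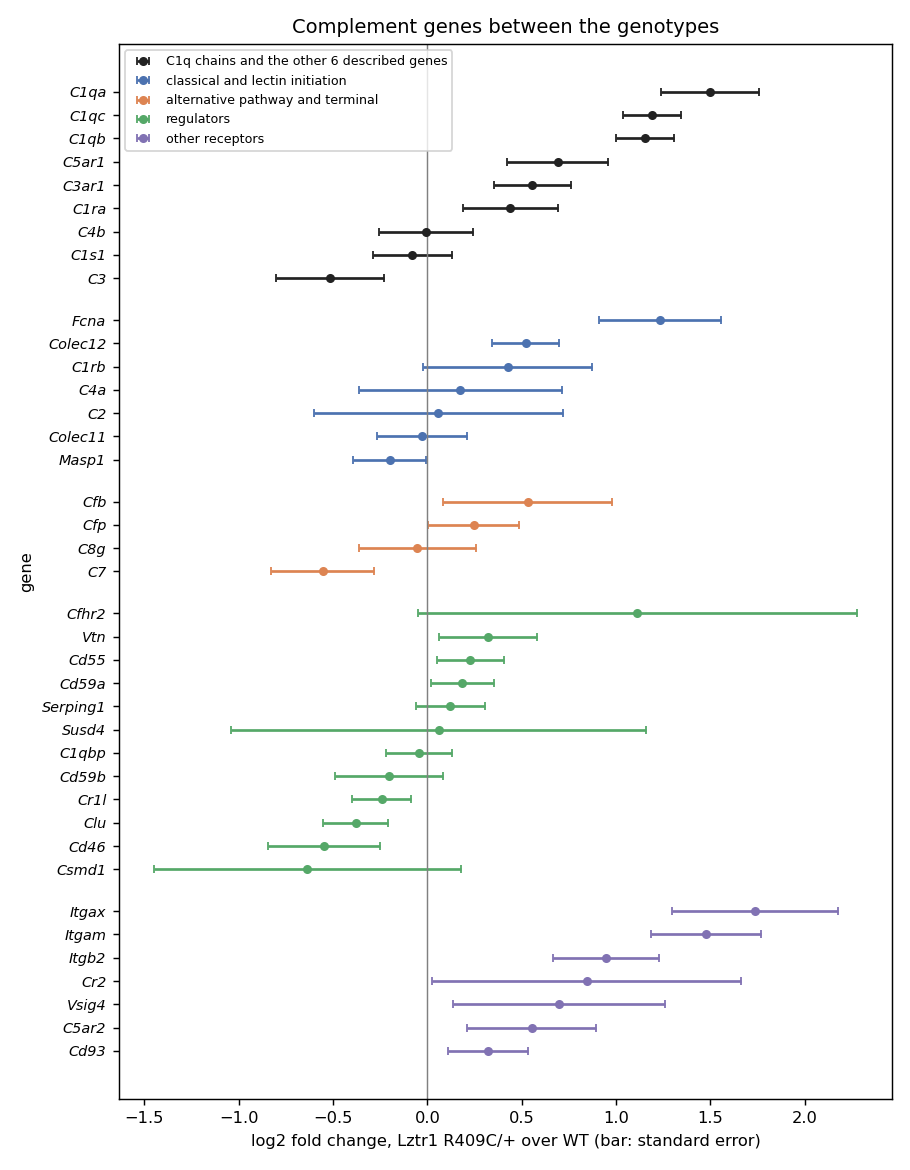
Log2 fold change of *Lztr1* R409C/+ over WT mice with its standard error (horizontal axis) for the 9 described genes and the other tested complement genes reported here, grouped by role (colors). The C1q chains lie at 1.15 to 1.5, near *Fcna*, *Itgam*, and *Itgax*, and the regulators spread around 0.

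Genes that share the globular C1q domain but belong to other functions were examined as a family. Of 26 genes 18 were tested, 17 with a positive and 1 with a negative log2 fold change. Over all genes tested, 8853 were positive and 8359 negative. The median of the family was 0.37, beside 0.01 over all genes tested. In every mutant mouse, 3 were higher, beside 8.3% of all genes tested. By edgeR's quasi-likelihood test, 0 passed the false discovery rate of 0.05, beside 0.0407% of all genes tested. At an unadjusted p under 0.05, 5 were higher and 0 lower, beside 5.77% and 2.86% of all genes tested. DESeq2, which called 143 genes higher and 15 lower in all, called *C1qtnf6* alone of the family, and edgeR's exact test called 0. *C1qtnf6*, for a secreted C1q/TNF-related protein, had 6.05, 8.47, and 4.54 CPM in WT and 10.1, 15.8, and 11.4 CPM in mutant mice, with the highest log2 fold change of the family, 0.97 (SE 0.25, edgeR quasi-likelihood adjusted p = 0.274). The lowest was -0.05 for *Mmrn1*, and *Emilin2* was the most abundant, with 35.2 to 42.6 CPM in WT and 25.6 to 46.4 CPM in mutant mice.

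The protein-coding genes beside the C1q cluster did not share its values. On one side, *Ephb2* had at most 0.511 CPM and a log2 fold change of 0.43 (SE 0.62), *Lactbl1* at most 0.193 CPM, and *Tex46* 0 counts. On the other side, *Epha8* had at most 0.182 CPM, *Zbtb40* had 8.73 to 10.8 CPM in WT and 6.50 to 9.36 CPM in mutant mice with a log2 fold change of -0.28 (SE 0.20), and *Wnt4* had at most 0.290 CPM. An antisense noncoding gene, *Gm69251*, shares 61 exon bases with *C1qb* and 247 with *C1qc* in GENCODE vM39 and is not among the gene identifiers counted, and the source does not state a strand setting, so reads of either strand may be counted in these genes. Around *C1ra* and *C1s1*, the log2 fold changes of *Pex5*, *Lpcat3*, *Emg1*, and *Phb2* lay between -0.08 and 0.07, and *C1rl*, a *C1r*-like protease gene next to *C1ra*, had 1.02 (SE 0.46) at 0.469 to 0.686 CPM in WT and 0.668 to 1.79 CPM in mutant mice. *C1s1* shares 576 exon bases with the antisense gene *Gm16567*, and *C1rb* lies within the span of *C1s1* without shared exon bases.

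The genes whose values over the 6 mice were most like the mean of the C1q chains were sought among 13206 other tested genes with a mean of at least 1 CPM. Likeness was the root mean square difference of log2 CPM after each gene's mean over all 6 mice was removed. The genotype difference, known when the C1q chains were listed, thus remained in the values, and the search favored genes with a similar one. The log2 fold changes of the 10 closest ran from 1.015 to 1.516, so the likeness is no separate evidence of variation with C1q. Among the 10 closest were *Spi1* (0.108), *H2-DMa* (0.136), *Cotl1* (0.138), *Irf5* (0.169), *Ccl6* (0.179), *Dpp4* (0.195), *Rps10-ps1* (0.200), *Fgd2* (0.201), and *Zbp1* (0.207). *Spi1*, which encodes PU.1, had 1.69, 1.82, and 1.69 CPM in WT and 3.84, 3.47, and 4.86 CPM in mutant mice. *H2-DMa*, for a chaperone of MHC class II, had 2.03 to 2.82 CPM in WT and 4.78 to 6.80 CPM in mutant mice. Of the C1q chains themselves, *C1qc* was closest to their mean (0.0838), with 0 other genes closer, *C1qb* had 10 other genes closer, and *C1qa* had 52, although each chain is itself part of that mean. *C3ar1* had 578 and *C5ar1* 809 genes closer, and *C3*, the farthest of the list, had 12994.

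Transcription factors of myeloid cells were read from a list of 7 that includes *Spi1*, of which 6 had a positive log2 fold change. So did 8853 of the 17212 genes tested. Of the 7, 3 were higher in every mutant mouse, beside 8.3% of all genes tested. By edgeR's quasi-likelihood test, 0 passed the false discovery rate of 0.05, beside 0.0407% of all genes tested. At an unadjusted p under 0.05, 4 of the 7, *Spi1* among them, were higher and 0 were lower, beside 5.77% and 2.86% of all genes tested. *Irf8* had 3.12, 2.31, and 3.06 CPM in WT and 4.51, 5.85, and 8.87 CPM in mutant mice, a log2 fold change of 1.18 (SE 0.28, edgeR quasi-likelihood adjusted p = 0.215). *Maf*, at 14.4 to 18.3 CPM in WT and 21.3 to 25.8 CPM in mutant mice, was separated as well. *Cebpb*, the most abundant of the list, overlapped at 31.5 to 61.3 CPM in WT and 30.0 to 51.7 CPM in mutant mice, with a log2 fold change of -0.09 (SE 0.25).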

How the data were processed

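Per the study's methods and the labels, reads were trimmed (Trim Galore), mapped to the GRCm39 genome (HISAT2), cleared of rRNA, and quantified per gene (StringTie). The authors deposited raw counts as whole numbers for each gene, and versions, annotation release, and strand setting are not given in the sources used here. Gene names of the described genes came from the authors' edgeR table, whose fold changes, average CPM, and p-values were not used, and other names and positions from GENCODE vM39, which held 56236 of 56923 identifiers. Genotypes came from the sample labels, with 1 library per mouse.

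Counts were filtered with filterByExpr, scaled with TMM, and compared with the robust quasi-likelihood test of edgeR 4.0.16 in R 4.3.3, two-sided, with Benjamini-Hochberg adjustment over 17212 genes at 0.05. CPM are TMM-scaled. SE is the absolute log2 fold change divided by the square root of F. DESeq2 1.42.0 was an alternative, and the steps were tested on simulated data. The members, lists, and alternatives were chosen with earlier results of these data known. Named were all members, the genes of each complement list with the lowest and highest log2 fold change and the highest level, the 10 genes most like C1q, and flanking genes. Other genes, such as *Hc*, *Itgam*, *Itgb2*, *C5ar2*, *Vsig4*, *Serping1*, *Irf8*, and *Maf*, were added after their values were seen. Protein sequences were not used here, and single values of some listed genes are not reported here. Other versions of the fit changed the scaling, filter, test, replicate block, length, or mice.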

Additional observations from a re-analysis of the deposited data

How the results depend on the processing

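Across 16 other versions of the analysis, the log2 fold changes of *C1qa* (1.17 to 1.79), *C1qb* (1.01 to 1.23), *C1qc* (1.04 to 1.24), *C1ra*, *C3ar1*, and *C5ar1* stayed positive and that of *C3* negative, whereas *C1s1* was positive in 2 and *C4b* in 4 of them. Without 1 mouse at a time, the median of the 9 genes lay between 0.415 and 0.679. Scaling by library size only shifted the median of all genes tested to -0.14, and then 3 of the 9 genes, the C1q chains, were higher in every mutant mouse.

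The number of the 9 genes called was 0 with library size only, with the replicate block, and without WT replicate 3 and mutant replicate 1 together, a version added after seeing the data. It was 0 in each fit without 1 mouse (range 0 to 0). It was 3 without a filter, with DESeq2, and with edgeR's exact test. Genes called higher numbered 15 with library size only, 19 without a filter, 143 with DESeq2, 127 with edgeR's exact test, 15 at a false discovery rate of 0.1, 0 with the replicate block, 0 without those 2 mice, and 1 to 3 without 1 mouse. Genes called lower numbered 6 with library size only, 0 with at least 10 counts in every mouse, 15 with DESeq2, 13 with the exact test, and 1 to 2 without 1 mouse. Of the other complement genes, 1 was called without a filter, 3 with DESeq2, and 2 with the exact test, and of the C1q family 1 with DESeq2. The labels do not say whether the replicate numbers pair the mice. Deviations of same-numbered mice correlated at -0.00133, 0.0215, and -0.0573 over all genes tested, which cannot settle this.

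In WT mice, the share of *C1qa* among the chains was 24.2% with counts not divided by length, that of *C1qb* was 43.7% with such counts and 30.6% with canonical transcripts, and that of *C1qc* was 39.6% with the longest transcript. Depth did not limit the described genes, which had at least 211 counts, but *Itgax*, *Cfhr2*, and *Csmd1* were below 2 CPM.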
